A study of Mus musculus with 2 samples.

Results

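The troponin and tropomyosin genes Tnnt1, Tnnt2, Tnni1, Tnni3, Tnnc1, Tnnc2, Tpm1, Tpm2, Tpm3 and Tpm4 were described in RNA from the newborn mouse heart. They were taken by gene identifier, from the names in the mouse GENCODE annotation, and not by any measured value. They are 10 of the 43346 mouse genes in the tables, and their 96 transcript models are among 103639. Reads were found for 9 of the 10, all but Tnnc2.

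The series holds 2 RNA sequencing libraries, in 1 group with no treatment and no control. The labels call them total RNA-seq, and they were made with a Smart-seq protocol. Replicate 1 was the whole heart of pup 1 and replicate 2 the whole heart of pup 3, both B6NCrl mice at postnatal day 0. The input of each was 13 pg of RNA above 200 nt in length, which the labels call 1 cell-equivalent, and both pups carry 1 shared donor identifier. With 1 library per heart and no second group, no test is possible, and a difference between the libraries joins the heart, the RNA aliquot and its amplification, which cannot be told apart.

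A whole heart mixes atria, ventricles, vessels and connective tissue, so that fewer cells of a type and less RNA per cell cannot be told apart. The libraries held about 40648700 and 33173400 expected counts, which are reads assigned to genes by estimation. All 6 cardiomyocyte markers were read in both libraries, and 8 of 9 skeletal muscle markers were at 0 in both, the exception being Mylpf at 22.1 and 0 TPM (transcripts per 1000000 over mouse genes, a level per transcript length). The summed level of 3 ventricular markers was 11755 and 26629 TPM, while that of 3 atrial markers was 6581 and 3445 TPM. The ventricular sum was nearly all Myl2 and Myl3, since Irx4 stood at 0 and 1.45 TPM. The hearts, or the aliquots, therefore differed in chamber markers. Mb, among the 6 cardiomyocyte markers, differed too, at 1218 and 4083 TPM. The part of either in the values below was not tested.

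Troponin and tropomyosin make the thin filament of striated muscle sensitive to calcium. Tropomyosin lies along the actin filament, and on it sits troponin, in which troponin C binds calcium, troponin I holds back contraction and troponin T anchors the complex to tropomyosin. The heart is known to exchange some of these proteins around birth: the slow skeletal troponin I, from Tnni1, gives way to the cardiac one, from Tnni3, and the troponin T of Tnnt2 loses an acidic segment near its amino end through alternative splicing.

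Exons of Tnnt2, the cardiac troponin T gene, are shown because the choice among them set the leading transcripts apart. The first line holds the 30-nt exon that the fetal forms include, at chr1:135843785-135843814 (mm10, + strand), within its spliced neighbours. The second holds the 12-nt exon just before it, at chr1:135842015-135842026. The third is the splice in transcript Tnnt2-211, which leaves out both, and the fourth is the 9-nt exon at chr1:135850379-135850387 in the middle of the coding sequence. Capitals mark the exon, or in the third line the bases on either side of the splice.

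Tnnt2 exon of 30 nt: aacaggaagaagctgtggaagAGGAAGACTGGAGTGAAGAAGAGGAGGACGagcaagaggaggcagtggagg

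Tnnt2 exon of 12 nt: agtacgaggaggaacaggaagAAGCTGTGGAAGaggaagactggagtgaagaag

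Tnnt2-211 junction: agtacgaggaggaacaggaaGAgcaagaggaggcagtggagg

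Tnnt2 exon of 9 nt: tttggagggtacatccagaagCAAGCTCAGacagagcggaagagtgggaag

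The 30-nt exon added 10 codons to Tnnt2-207, and removing it took away 8 of that transcript's 88 codons for the acidic residues aspartate and glutamate. The 12-nt exon accounted for 4 codons, of which 2 were acidic by the same count. The 9-nt exon of Tnnt2-211 added 3 codons and no acidic one.

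Troponin T RNA was nearly all cardiac. Tnnt2 (chr1:135836354-135852260, + strand) stood at 8730 and 9166 TPM in replicates 1 and 2, a mean of 8948 ± 308 TPM (SD, n = 2), and ranked 12 among mouse genes by mean level. Tnnt1, the slow skeletal troponin T gene (chr7:4504570-4516382, − strand), stood at 61.4 and 62.7 TPM. The libraries were close for both genes, and the ranges of the genes were far apart. The level of Tnnt2 was 142 times that of Tnnt1 in replicate 1 and 146 times in replicate 2, so that Tnnt1 made up 0.699% and 0.680% of troponin T RNA. Tnnt3, the fast skeletal gene, had no count in either library. By counting error alone, finding none still permits as many as 3 reads, which is 0.0756 and 0.0916 per 1000000 mouse counts. Reads amplified from so little RNA are not independent molecules, so such limits are narrower than the true uncertainty.

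**Figure D1:**
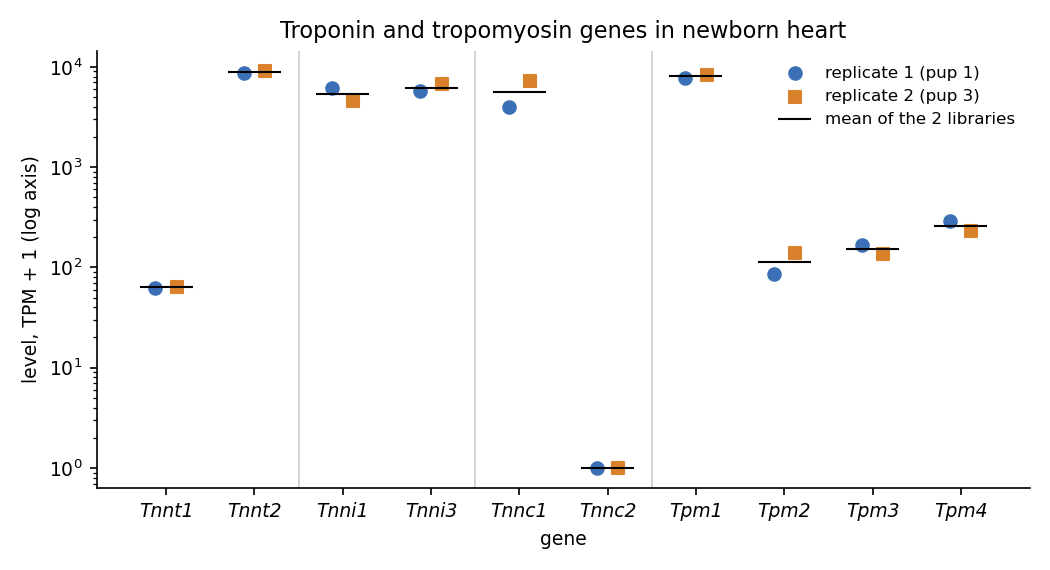
Level of each of the 10 genes in TPM + 1 on a log axis, with a circle for replicate 1, a square for replicate 2 and a bar for the mean of the 2 libraries; vertical lines separate troponin T, I, C and tropomyosin genes. Tnnt2, Tnni1, Tnni3, Tnnc1 and Tpm1 lie at 3986 TPM or more in both libraries, Tnnt1, Tpm2, Tpm3 and Tpm4 between 61.4 and 288 TPM, and Tnnc2 at 0.

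Tnnt2 was read as a mixture of transcripts with and without the fetal exon. Tnnt2-207, which holds the 30-nt and 12-nt exons and lacks the 9-nt exon, made up 36.5% of the gene's TPM in replicate 1 and 41.6% in replicate 2. Tnnt2-211, which lacks the first pair and holds the 9-nt exon, made up 30.2% and 27.6%. These were the highest and the next highest of the 15 Tnnt2 models in both hearts. Tnnt2-205, with the 30-nt exon and without the 12-nt and 9-nt exons at the positions shown, followed at 11.7% and 10.7%. Tnnt2-212, with the 12-nt and 9-nt exons, held 7.08% and 8.66%. Tnnt2-205 and Tnnt2-207 both have 302 codons, so Tnnt2-205 is not shorter by the 4 codons of the 12-nt exon. Whether it holds the same stretch at another position was not tested.

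Summed over the models that bear on it, the 30-nt exon was in 56.8% of Tnnt2 TPM in replicate 1 and 59.8% in replicate 2, a mean of 58.3% ± 2.11 (SD, n = 2). The 12-nt exon was in 47.7% and 54.3%, with Tnnt2-205 counted as lacking it by position. Tnnt2-205 held 1019 and 976 of the 4424 and 4068 TPM counted as lacking the 12-nt exon. The 9-nt exon was in 45.3% and 42.2%. In both hearts each of these exons was thus neither in nearly all of the Tnnt2 RNA nor in little of it. An 11-nt exon just upstream, at chr1:135841901-135841911, was in 87.6% and 88.7%, with Tnnt2-205 again counted as lacking it. Of the 1050 and 1009 TPM so counted, Tnnt2-205 held 1019 and 976. Its coding sequence has as many codons as that of Tnnt2-207, which holds the 11-nt exon. These shares therefore go by position and do not show that the stretch was skipped. Transcripts that began at the outer of the annotated first exons made up 58.0% and 53.8%, and those that began at the inner one made up the rest.

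The 30-nt and 9-nt exons were read in opposite transcripts. Models with the 30-nt exon and without the 9-nt exon held 54.7% and 57.8% of the Tnnt2 TPM on models that bear on both exons. Models with the reverse held 40.7% and 38.7%. Models with both held 4.63% and 3.50%. No listed model lacks both, so that combination could not receive reads, and short reads that span only 1 of these exons were divided among the listed models by estimation. The joint use of the exons is therefore limited by the annotation.

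Tnnt1 differed more between the libraries in its transcripts than in its level. Tnnt1-201 and Tnnt1-206 held 44.6% and 44.7% of it in replicate 1 but 21.2% and 10.96% in replicate 2. Tnnt1-210 led in replicate 2, at 28.6% against 9.00% in replicate 1, and Tnnt1-203 and Tnnt1-209 were at 0 in replicate 1 and at 24.3% and 11.7% in replicate 2. The gene had 1668 and 1400 counts, the fewest of the 9 genes with reads. Its 33-nt alternative exon (chr7:4513581-4513613) was in 55.1% and 76.4% of its TPM.

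**Figure D2:**
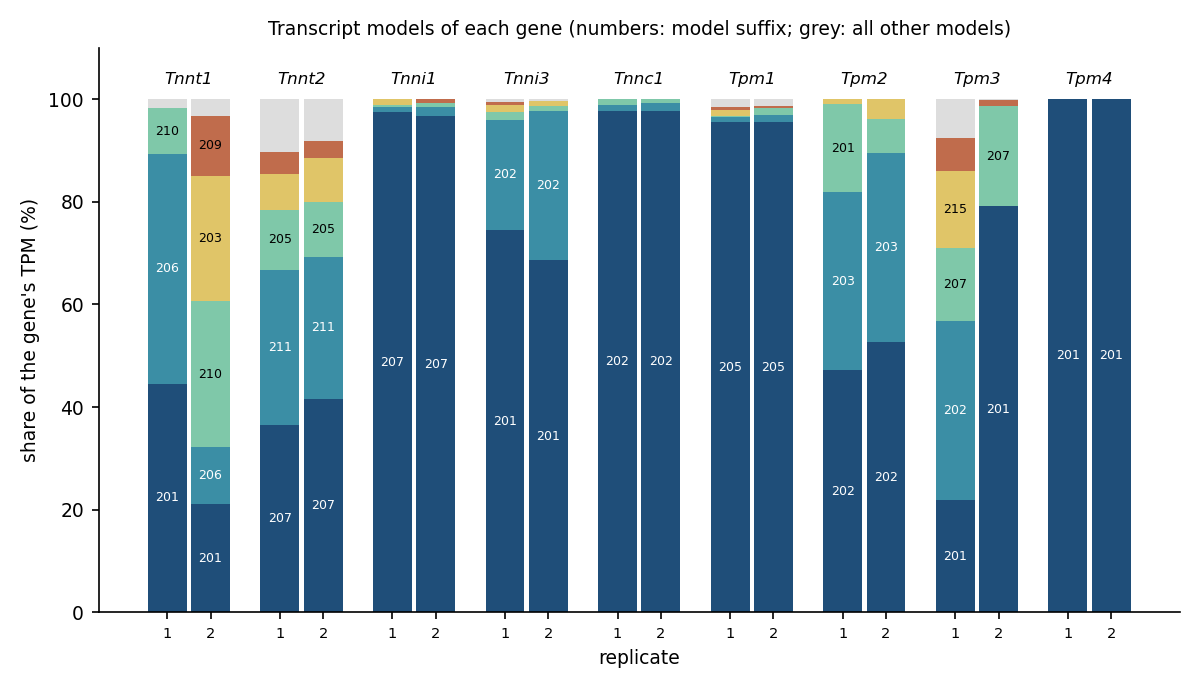
Share of each gene's TPM, in percent, on its 5 transcript models of highest mean share (colours, each with the model's number where its share is 9% or more) and on all other models (grey), for replicates 1 and 2 of the 9 genes with reads. Tnni1, Tnnc1, Tpm1 and Tpm4 rest on 1 model each, Tnnt2 and Tpm2 on several models with the same one leading in both libraries, and Tnnt1 and Tpm3 change their leading model between the libraries.

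Both troponin I genes of the developing heart were read at similar levels. Tnni1 (chr1:135779434-135810989, + strand) stood at 6206 TPM in the first heart and 4557 TPM in the second, a mean of 5381 ± 1166 TPM (SD, n = 2). Tnni3 (chr7:4518305-4524229, − strand) stood at 5683 and 6709 TPM, a mean of 6196 ± 725 TPM (SD, n = 2). Tnni1 was the higher in the first heart and Tnni3 in the other, and their ranges overlapped. On the log2 scale the ratio of Tnni3 to Tnni1 was −0.13 in replicate 1 and 0.56 in replicate 2. Tnni1 thus made up 52.2% and 40.4% of the troponin I RNA, and Tnni2, the fast skeletal gene, had no count. On expected counts, which are not set against length, Tnni1 was the higher in both hearts. The log2 ratio of Tnni3 to Tnni1 was then −0.65 in replicate 1 and −0.02 in replicate 2.

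The balance of Tnni3 and Tnni1 depended on which transcripts were counted. Tnni3-201, the coding model, held 74.5% and 68.7% of Tnni3 TPM, while Tnni3-202, a 451-nt model that keeps an intron and has no coding sequence, held 21.5% and 29.0%. A short model weighs more in TPM than in reads: Tnni3-202 took 13892 and 18772 counts, or 10.9% and 15.3% of the gene's. With protein-coding models alone, the log2 ratio of Tnni3 to Tnni1 was −0.55 in replicate 1 and 0.02 in replicate 2, and Tnni1 made up 59.4% and 49.6% of troponin I RNA. Tnni1 itself rested on 1 model, Tnni1-207, at 97.5% and 96.7%. Whether reads of the kept intron came from unspliced RNA was not tested.

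A stretch of Tnni3 that Tnni1 lacks is shown, because it tells the transcripts of the exchanging pair apart. It is an 87-nt exon at chr7:4521816-4521902 (mm10, − strand) near the start of the coding sequence, which encodes most of the amino-terminal extension of cardiac troponin I. Capitals mark 3 codons for arginine followed by 2 for serine, the serines being the known target of protein kinase A under adrenergic drive. The coding sequence of Tnni3-201 held 1 such run of codons in frame, and that of Tnni1-207 held 0.

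Tnni3 exon of 87 nt: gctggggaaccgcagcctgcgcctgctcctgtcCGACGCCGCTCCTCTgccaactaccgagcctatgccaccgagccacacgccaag

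The coding sequences of Tnni3-201 (211 codons) and Tnni1-207 (187 codons) matched at 66.4% of their aligned bases, and their longest shared run was 21 nt. The reads of these genes can therefore be told apart along most of their length, and the deposited posterior SD of the count was 0 for both.

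Troponin I and T genes lie in neighbouring pairs, and the pairs differed in their levels. Tnni1 and Tnnt2 are 25.4 kb apart on chromosome 1, with Lad1 as the only protein-coding gene between them, and both were among the 24 mouse genes of highest mean level. Tnni3 and Tnnt1 are 1.92 kb apart on chromosome 7 with no protein-coding gene between them, and the level of Tnni3 was 92.5 and 107 times that of Tnnt1. Tnni2 and Tnnt3, the remaining pair, were both at 0.

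Troponin C RNA was read from Tnnc1 alone. Tnnc1, which encodes the troponin C of heart and slow muscle (chr14:31208312-31211729, + strand), stood at 3986 TPM in the first heart and 7207 TPM in the second, a mean of 5597 ± 2277 TPM (SD, n = 2). The second heart was 1.81 times the first, the widest gap between the libraries of any of the genes. Tnnc2, the fast skeletal gene (chr2:164777161-164779967, − strand), had no count in either library. Set against the level that 3 counts per library would give Tnnc2, Tnnc1 was 17124-fold higher in replicate 1 and 26263-fold higher in replicate 2. These folds take reads as independent molecules, which reads amplified from so little RNA are not, so they are no firm lower bounds. The model Tnnc1-202 held 97.6% of the gene in each library.

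The coding sequences of Tnnc1 and Tnnc2 matched at 70.7% of their aligned bases, with no shared run longer than 21 nt, so that few reads of one could be taken for the other.

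**Figure D3:**
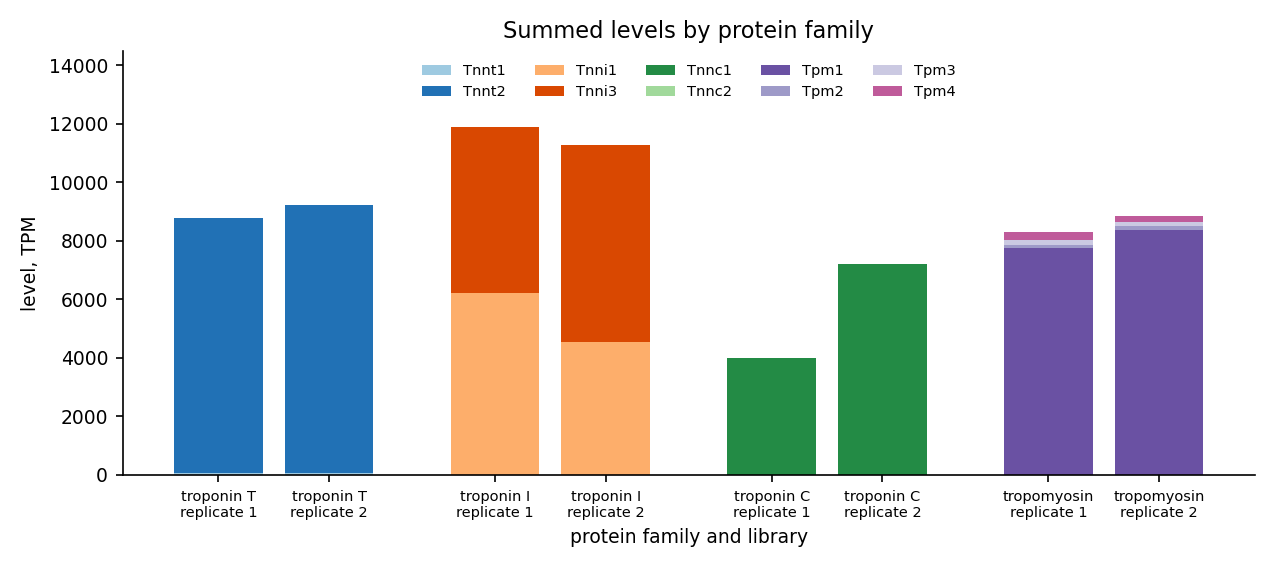
Summed TPM of the troponin T, troponin I, troponin C and tropomyosin genes in each library, with the genes stacked by colour. Troponin I is split between Tnni1 and Tnni3, while Tnnt2, Tnnc1 and Tpm1 fill nearly all of the other bars, and the troponin C bars, at 3986 and 7207 TPM, differ most between the libraries.

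Summed by protein, troponin T stood at 8791 and 9229 TPM, troponin I at 11889 and 11266 TPM, troponin C at 3986 and 7207 TPM and tropomyosin at 8313 and 8865 TPM. Per unit of troponin T, tropomyosin was at 0.946 and 0.961 and troponin I at 1.35 and 1.22. Troponin C was at 0.453 and 0.781 per unit of troponin T, and was the lowest of the subunits in both. Its mean, 0.617, was 0.372 on expected counts, which are not set against length. The 10 genes together made up 3.30% and 3.66% of all mouse TPM.

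Tropomyosin RNA was mainly that of Tpm1. Tpm1, which encodes the main tropomyosin of the heart (chr9:67022590-67049406, − strand), stood at 7773 and 8363 TPM, a mean of 8068 ± 417 TPM (SD, n = 2), or 93.5% and 94.3% of the 4 tropomyosin genes. The other genes were lower by an order or more. Tpm4, which encodes a cytoskeletal tropomyosin (chr8:72134975-72153142, + strand), stood at 288 and 229 TPM. Tpm3, a source of slow muscle and of cytoskeletal forms (chr3:90072649-90100902, + strand), stood at 167 and 135 TPM. Tpm2, which encodes the beta tropomyosin of striated and smooth muscle (chr4:43514711-43523765, − strand), stood at 84.9 and 138 TPM.

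The tropomyosin genes kept an order only in part. Tpm1 was above the other 3 genes in both hearts, by 27.0 to 91.6 times per transcript length, and Tpm4 was above Tpm3 in both. On expected counts, which are not set against length, the mean log2 ratio of Tpm1 to Tpm4 was 4.10 in place of 4.97, and that of Tpm1 to Tpm3 4.99 in place of 5.74. On TPM, Tpm3 and Tpm2 overlapped, Tpm3 being the higher in replicate 1 and Tpm2 in replicate 2. On expected counts Tpm3 was the higher in both, at 8872 and 7901 against 4586 and 6044. Across the whole set the order by mean level was Tnnt2, Tpm1, Tnni3, Tnnc1, Tnni1, Tpm4, Tpm3, Tpm2, Tnnt1 and Tnnc2. The ranges of the libraries overlapped for Tnni3 with Tnnc1, for Tnnc1 with Tnni1 and for Tpm3 with Tpm2, and for no other neighbours in that order.

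Sequences of the alternative sixth exon of Tpm1, Tpm2 and Tpm3 are shown, because its choice separated the transcripts of these genes in different ways. The exon exists in a 6a and a 6b form, of which a transcript usually holds 1. Striated muscle forms use 6b, but 6b alone does not mark them. The smooth muscle combination of Tpm1 and the cytoskeletal model Tpm3-202 hold it too. They lie at chr9:67032466-67032541 and chr9:67031951-67032026 in Tpm1 (− strand), at chr4:43519003-43519078 and chr4:43518644-43518719 in Tpm2 (− strand), and at chr3:90088401-90088476 and chr3:90089048-90089123 in Tpm3 (+ strand), all in mm10. Capitals mark the bases at which 6a and 6b of the same gene differ.

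Tpm1 exon 6a: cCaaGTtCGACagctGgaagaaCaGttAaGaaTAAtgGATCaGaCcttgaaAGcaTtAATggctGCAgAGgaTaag

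Tpm1 exon 6b: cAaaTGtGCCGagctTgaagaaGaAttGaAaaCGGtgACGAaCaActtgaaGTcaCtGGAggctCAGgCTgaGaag

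Tpm2 exon 6a: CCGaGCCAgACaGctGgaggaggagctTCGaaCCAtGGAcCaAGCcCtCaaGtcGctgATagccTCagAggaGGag

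Tpm2 exon 6b: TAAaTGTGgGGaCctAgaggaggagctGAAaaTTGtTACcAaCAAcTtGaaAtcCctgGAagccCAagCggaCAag

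Tpm3 exon 6a: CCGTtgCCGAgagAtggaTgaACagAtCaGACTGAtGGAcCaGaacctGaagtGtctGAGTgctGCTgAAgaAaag

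Tpm3 exon 6b: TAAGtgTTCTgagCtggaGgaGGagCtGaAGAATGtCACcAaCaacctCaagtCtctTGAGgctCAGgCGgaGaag

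Each form is 76 nt long. Forms 6a and 6b differed at 33 bases in Tpm1, at 35 in Tpm2 and at 37 in Tpm3. Between genes the same form was closer: 6b of Tpm1 and 6b of Tpm2 differed at 20 bases, and their 6a forms at 27. Reads over this exon can therefore be assigned to a form.

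Tpm1 was read almost wholly as its striated muscle form. Tpm1-205, which holds first exon 1a, exon 2b, exon 6b and the terminal exon 9b, made up 95.5% of the gene's TPM in each library. The 2 models with that combination, Tpm1-205 and Tpm1-207, held 97.9% and 98.0% of the TPM on models that bear on these exons. Tpm1-207 has 287 codons and Tpm1-205 has 284, so their coding sequences are not the same. Exon 6b was in 99.3% and 98.3% of Tpm1 TPM, and exon 2b in more than 99% in both. Models with exons 2a and 9d and with 6b held 0.0352% and 0.235%. They were Tpm1-215, the smooth muscle combination, at 0.646 and 17.8 TPM, and Tpm1-202, which holds 2b as well, at 2.05 and 1.69 TPM. The smooth muscle markers Acta2, Cnn1, Smtn, Tagln and Myh11 were nonetheless all read. Their summed level was 1079 and 1625 TPM, most of it Acta2, which the immature heart muscle also expresses. Terminal exon 9d was in 1.04% and 0.701% of Tpm1 TPM.

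Tpm2 was a mixture of both forms. Exon 6b was in 47.6% of Tpm2 TPM in replicate 1 and 54.8% in replicate 2, a mean of 51.2% ± 5.10 (SD, n = 2), and 6a in the rest. Tpm2-202, with 6b and terminal exon 9a, the striated form, held 47.2% and 52.7%. Tpm2-203, with 6a and terminal exon 9d, the form of smooth muscle and other cells, held 34.7% and 36.8%, and Tpm2-201, which joins 6a to 9a, held 17.2% and 6.71%. The annotated 3′ end of the 9a exon runs over the 9d exon, so that reads in the overlap were shared between the models by estimation. Weighted by reads in place of TPM, the share with 6b was 56.5% and 66.5%.

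**Figure D4:**
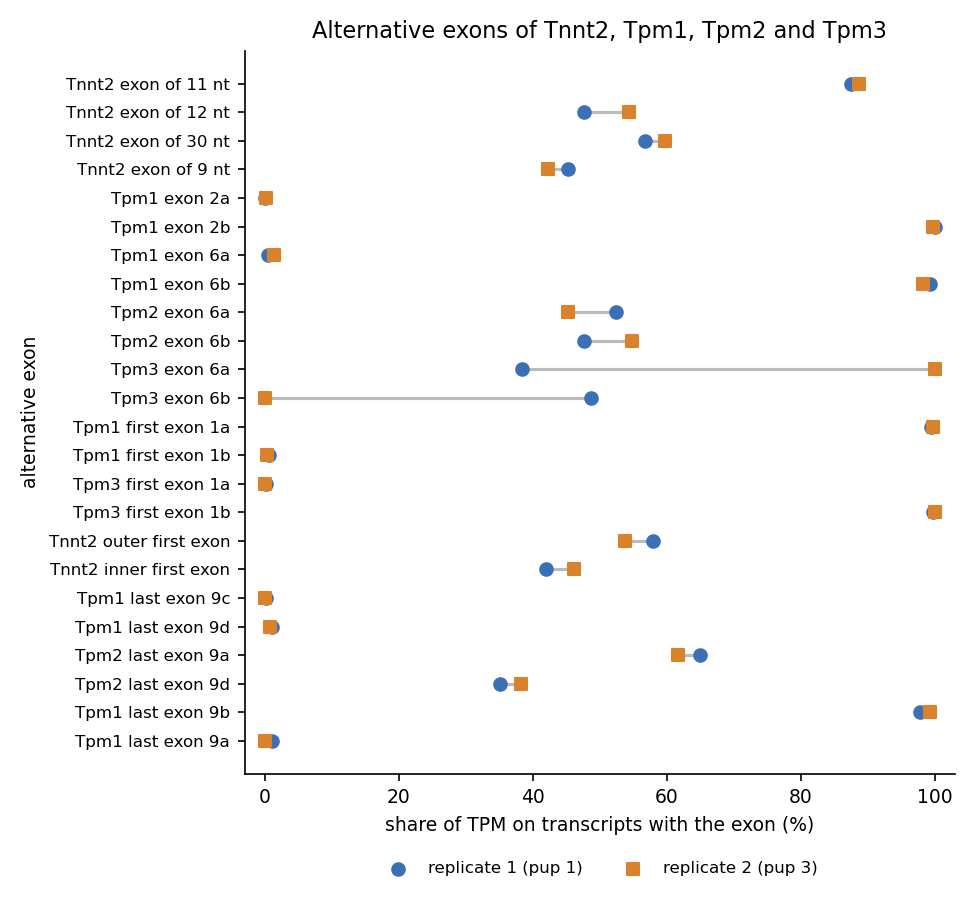
Share of TPM, in percent, on transcripts that hold each alternative exon of Tnnt2, Tpm1, Tpm2 and Tpm3, among the models that bear on that exon, with a circle for replicate 1, a square for replicate 2 and a line between them. The Tpm1 exons lie near 0 or 100%, those of Tnnt2 and Tpm2 between 35.1 and 88.7%, and exon 6a of Tpm3 moves from 38.4 to 100%; exon 6b of Tpm3 lies at 48.7% in replicate 1, where non-coding models are counted too. Exons are matched by position, so Tnnt2-205 counts as lacking the 11-nt and 12-nt exons of Tnnt2.

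The coding RNA of Tpm3 was read as its short cytoskeletal form, with an exon choice that differed between the libraries. First exon 1b, which begins the 248-codon proteins, was in 99.8% and 100% of the TPM on models that bear on the first exon. Models with 1b held 119 and 133 of the gene's 167 and 135 TPM, a part of it on the non-coding Tpm3-207. First exon 1a, which begins the 284-codon tropomyosin of slow muscle, had 6.88 expected counts in replicate 1 and 0 in replicate 2. The slow muscle form was thus at or near 0 in both hearts. Tpm3-201, with exon 6a, held 21.8% of the gene in replicate 1 and 79.2% in replicate 2. Tpm3-202, with exon 6b, held 34.9% in replicate 1, from 3943 counts, and 0 in replicate 2. Among protein-coding models, 6b was thus in 61.6% of Tpm3 TPM in one heart and in none of it in the other, at levels of the gene of 167 and 135 TPM.

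The rest of Tpm3 lay on models with a kept intron. Tpm3-207 held 14.2% and 19.5%, Tpm3-215 15.0% and 0, Tpm3-209 7.38% and 0, and Tpm3-211 6.35% and 1.21%. Non-coding models together held 43.1% and 20.9% of the gene. Tpm3 also has copies elsewhere in the genome: Tpm3-rs7 was listed at 2.03 and 2.83 TPM and Tpm3-rs2 at 0. The deposited posterior SD of the Tpm3 count was 12.2 and 13.5 reads, of 8872 and 7901 counts.

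Tpm4 was read as 1 model, Tpm4-201, with 248 codons, at 100% in both libraries. Over all 4 genes, models of 284 codons, the length of the sarcomeric tropomyosins, held 93.9% and 94.5% of coding tropomyosin TPM, and models of 248 codons held 4.84% and 3.86%. Apart from Tpm1, the 248-codon models outweighed those of 284 codons, at 383 and 336 TPM against 84.3 and 133 TPM. Those of 284 codons include Tpm2-203, the form of smooth muscle and other cells, at 29.5 and 50.8 TPM. Not all of them are therefore sarcomeric.

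The 2 hearts were compared gene by gene on log2(TPM + 1), a scale that understates the change of low genes. All 9 genes with reads had a mean above 5 TPM, and 0 of them differed more than 2-fold, where 4510 of 8266 mouse genes at that level, 54.6%, did. Most of those genes were read at lower levels, where the libraries differ more, so the members were also set against genes in their own ranges, which were chosen after the values were seen. At a mean of 1000 TPM or more, 0 of 5 members and 9.93% of 151 mouse genes differed more than 2-fold. At 50 to 300 TPM it was 0 of 4 members and 31.2% of 1787 mouse genes.

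Past 1.5-fold, 1 of the 5 higher members, Tnnc1, differed, where 33.1% of mouse genes at 1000 TPM or more did. Of the 4 lower members Tpm2 did, at 1.63 times the first heart in the second, where 55.3% of genes at 50 to 300 TPM did. Counts over so few genes do not set the members apart from that background. The median log2 ratio of replicate 2 to replicate 1 was 0.07 over the 9 members, of which 6 were higher in replicate 2 and 3 lower, beside 0.01 over the 8266 genes. The directions of Tnnt1 and Tpm3 turned with other scalings and are not read as differences.

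**Figure D5:**
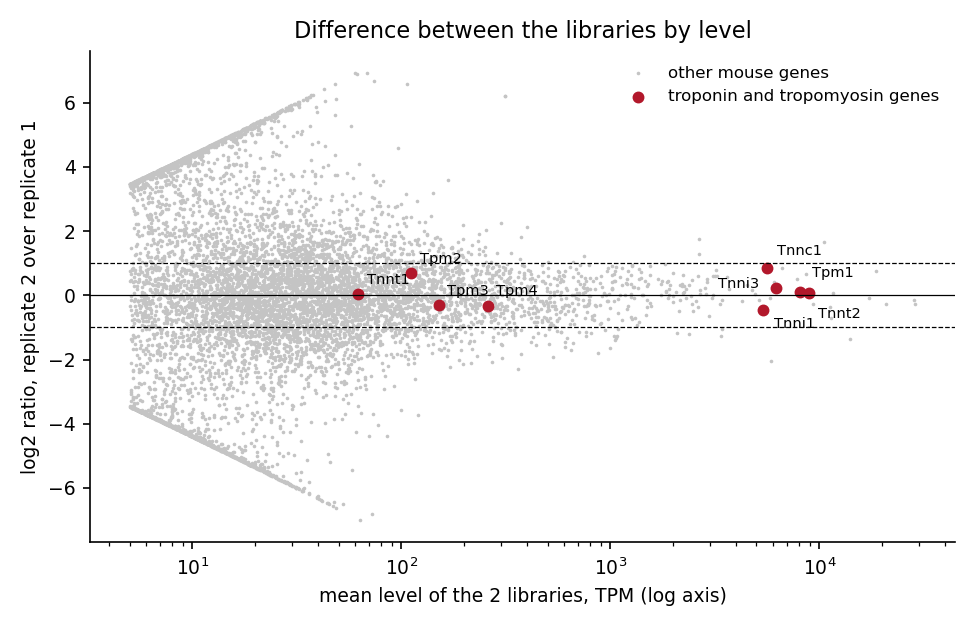
Log2 ratio of replicate 2 to replicate 1, computed on TPM + 1, against the mean TPM of the 2 libraries on a log axis, for mouse genes that average at least 5 TPM (grey) and the 9 troponin and tropomyosin genes with reads (red); dashed lines mark a 2-fold difference. The grey cloud narrows with level, and all 9 named genes lie within the dashed lines, Tnnc1 highest at 0.85 and Tnni1 lowest at −0.45.

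Tnnc1 and Tpm2 were higher in the heart with the higher ventricular markers, and Tnni1 and Tpm4 were higher in the other. The ventricular light chain Myl2 stood at 5082 and 15945 TPM and the atrial light chain Myl7 at 4639 and 2239 TPM, while the ventricular Myl3 stood at 6673 and 10682 TPM and the atrial Myl4 at 1104 and 987 TPM. Myl2 and Myl7 thus shifted more than any of the 10 genes, and Myl3 and Myl4 less than Tnnc1. Summed fibroblast markers were at 1010 and 878 TPM. With 1 library on each side, the part of these markers in the differences was not tested.

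Genes that act with troponin and tropomyosin on the thin filament were read for the most part. Of 15 partners, 10 reached 1 TPM in each library, and Tmod4, Lmod1 and Mybpc2 were at 0 in both. The highest were Actc1, the cardiac actin gene, at 13940 and 23510 TPM, Acta2, the smooth muscle actin gene, at 988 and 1527 TPM, and Mybpc3, cardiac myosin-binding protein C, at 853 and 711 TPM. Tmod3, a capping protein of the filament's pointed end, differed most, at 61.7 and 12.8 TPM. It was the only partner past 2-fold of the 10 at 5 TPM or more, beside 54.6% of mouse genes at that level. Most of these partners averaged above 50 TPM, where fewer genes were: 31.2% at 50 to 300 TPM and 9.93% at 1000 TPM or more. Counts over so few genes do not set the partners apart. Summed alpha actins per unit of tropomyosin were at 1.82 in replicate 1 and 2.84 in replicate 2, so that actin and troponin C were both higher against tropomyosin in the second heart.

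Among 11 genes whose products modify or remove troponin, 8 were read in both libraries. The highest were the phosphatase subunits Ppp1ca, at 447 and 761 TPM, and Ppp1cb, at 78.6 and 85.8 TPM, and Tnni3k, a heart kinase that binds cardiac troponin I, at 87.5 and 52.2 TPM. On log2(TPM + 1), Trim63, a ubiquitin ligase that marks troponin I for removal, differed most, at 120 and 15.0 TPM, or 8.03 times. On plain TPM the phosphatase subunit Ppp2ca was 8.70 times apart, at 1.30 and 11.3 TPM. The protein kinase A subunit Prkaca, whose target is the serine pair shown for Tnni3, stood at 25.8 and 63.9 TPM, and the other catalytic subunit in the list, Prkacb, at 20.5 and 20.3 TPM. Both were named for that link after their values were seen. Of the 7 modifiers at 5 TPM or more, 3 differed more than 2-fold. Beside this stand 54.6% of all mouse genes at that level and 31.2% of those at 50 to 300 TPM. Over so few genes this does not set the modifiers apart.

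Regulators of splicing, some of them known to act on these transcripts, were read for the most part. Of 14 such genes 12 were read in both libraries, and 8 of the 13 at 5 TPM or more differed more than 2-fold. The background share was 54.6% at that level and 31.2% at 50 to 300 TPM, and so few genes are not set apart from it. The highest were Rbm38 at 99.6 and 88.6 TPM, Mbnl1 at 61.9 and 105 TPM and Ptbp1 at 107 and 43.4 TPM, all RNA-binding proteins. Rbfox1, which binds introns beside regulated muscle exons, differed most, at 0.0625 and 15.8 TPM. Over the same libraries the 30-nt exon of Tnnt2 moved from 56.8% to 59.8% and exon 6b of Tpm1 from 99.3% to 98.3%, and whether any regulator bears on these shares was not tested.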

How the data were processed

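For each library the authors deposited a table of genes and a table of transcripts. Per the file headers these hold expected counts (estimated reads per feature, with posterior SDs), TPM, FPKM (used only as an alternative to TPM) and, for transcripts, the share of the gene in percent. The deposited text notes name mm10 and GENCODE M4 and derive the tables from transcriptome alignments, while the aligner and the quantifier were not given in the sources used here. No strand rule for counting was found either, so a gene and an antisense partner cannot be told apart. TPM was rescaled to 1000000 over mouse genes, without spike-ins, which held 2.40% and 1.27% of counts. 

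GENCODE M21, on the same assembly, gave names, models and sequences: 94 of the 96 transcripts were found in it, 93 with the deposited length. An exon's share is the TPM of models that hold it over that of models that hold or skip it, and a model that ends before the exon or keeps its intron by 50 nt or more bears on neither. First exons were matched by their 3′ end and last exons by their 5′ end. Coding sequences were aligned end to end, with end gaps free.

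Levels are given with the SD of the 2 libraries. Neighbours in level were called apart where the libraries' ranges did not overlap. The fold comparison used log2(TPM + 1) and a mean of 5 TPM, and a gene was called read at 1 TPM. Nothing says that the pups came from separate litters, and 1 donor identifier covers both. The fold rule was tested on simulated counts of the 43346 genes with counting error alone, less than real libraries vary: it called 100% of 200 genes changed 4-fold and 0% of the unchanged genes above 500 counts. The exon shares were checked on made-up transcript models. The rule for names takes the 10 members, Tnnt3 and Tnni2, the 3 highest and the most different gene of each list of partners, and transcripts with 5% of their gene in either library. Chamber, cardiomyocyte, smooth and skeletal muscle markers and partners at 0 were named outside it, after their values were seen. So were the kinase subunits Prkaca and Prkacb and the phosphatase subunit Ppp2ca. The members, lists and alternatives were chosen with earlier results of these data known. Alternatives were a pseudocount of 0.1, FPKM, expected counts, TMM factors (edgeR 4.0.16) and size factors (DESeq2 1.42.0) on rounded counts, posterior means, other thresholds, protein-coding models only and leaving out each library. Tools were Python 3.11.15, pandas 2.3.3, biopython 1.88 and R 4.3.3.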

Additional observations from a re-analysis of the deposited data

How the results depend on the processing

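No paired analysis was possible because the 2 libraries form 1 group. With a threshold of 1.5-fold, 2 members differed between the libraries in place of 0. The share of mouse genes over 2-fold apart was 54.6% as reported, 59.8% from 1 TPM, 9.93% from 1000 TPM and 70.3% past 1.5-fold. The log2 ratio of the libraries changed sign for Tnnt1 with TMM factors (−0.048) and DESeq2 size factors (−0.081), and for Tpm3 with expected counts per library total (0.11), TMM factors (0.036), DESeq2 size factors (0.0027) and coding models alone (0.17), so neither gene has a direction. The mean log2 ratio of Tnni3 to Tnni1, 0.22, turned to −0.33 on expected counts and −0.26 on coding models, and ranged from −0.13 to 0.56 as either library was left out. Troponin I over troponin T, 1.29, became 1.04 on expected counts and 1.13 on coding models. Troponin C over troponin T fell from 0.617 to 0.372 on expected counts, and tropomyosin over troponin T, 0.953, became 1.08 and 0.969. Expected counts, which weigh long models more, put Tpm2 exon 6b at 61.5% and last exon 9a at 76.5%, and posterior means put Tpm3 first exon 1b at 99.7%. The coding alternative and the level ranges of the background were chosen after seeing the data. The cause of these shifts was not tested. With 2 libraries, SDs are themselves imprecise.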
